A study of Mus musculus with 24 samples.

Results

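The Krüppel-like factors are zinc finger transcription factors that bind GC-rich and CACCC elements. The members analysed here were Klf2, Klf3, Klf4, Klf6, Klf7, Klf10, Klf11, Klf13 and Klf16, 9 genes chosen by name among the 53801 genes of the counts table. Of these, 8 were among the 12963 genes with enough reads to be tested. Klf4 had 1 to 11 reads per library and is given as not measured.

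RNA was sequenced from ER-Hoxb8 cells, a murine line of granulocyte-monocyte progenitors held immature by an estrogen-dependent Hoxb8 and released when beta-estradiol is washed out. Stable lines carried an empty vector (backbone, BB), human wild-type ERG (WT-ERG), an ETS transcription factor, or the same ERG with a proline replaced by leucine (P199L-ERG). All cells had been washed free of beta-estradiol and were treated with the solvent DMSO or with the HDAC3 inhibitor BRD3308, which gave 6 groups of 4 libraries. The methods and the design text give 5 µM and 36 h, but the study's text and a legend also give another time and another dose. The lines were sorted after transduction, so a difference between constructs can include a difference between derived lines, and p values measure the spread between these 4 experiments. In bulk RNA, fewer cells of a type and less RNA per cell cannot be told apart.

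Libraries held 12510036 to 16280939 counts. Levels are counts normalised to library depth (CPM), given with the SD over n = 4 libraries. Differences are log2 fold changes from an edgeR quasi-likelihood fit of all genes in all 24 libraries, given with their standard error (SE), and a gene was called higher or lower at an adjusted p under 0.05. All 8 granulocyte-monocyte progenitor markers listed passed the filter on low counts, at a summed 22292 to 29755 CPM. Of 7 erythroid markers 5 were at 0 in every library, and the 5 epithelial markers summed to at most 0.306 CPM. Of 10 lymphocyte markers 3 passed the filter, and the list summed to 124 to 385 CPM. Of 6 endothelial markers 2 passed, and that list summed to 80.1 to 406 CPM. Both sums were higher with BRD3308 than with DMSO in each construct, and higher in both ERG constructs than in BB cells with either treatment. Single markers went both ways with ERG. In each ERG construct 1 lymphocyte marker was called higher and 1 lower with DMSO, and 1 higher and 2 lower with BRD3308. Of the 2 endothelial markers, 1 was called higher in each of these comparisons and the other had a negative log2 fold change. Of all genes, 29.7% and 28.2% were called for WT-ERG and P199L-ERG with DMSO, and 21.1% and 16.9% with BRD3308.

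Klf2, Klf4, Klf6 and Klf7 act mainly as activators. Klf2 keeps lymphocytes and myeloid cells quiescent, Klf4 promotes monocyte differentiation, Klf6 takes part in inflammatory gene activation in macrophages, and Klf7 is best known from neurons. Klf3 is a repressor that recruits the CtBP co-repressors, while Klf10 and Klf11, which TGF-beta induces, and Klf13 and Klf16 bind the co-repressor Sin3a.

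The members' own starts were searched for the family's binding element. RefSeq windows of 300 bases, from 250 before to 50 after a gene's start, were found for 7 of the 9 members in the GRCm38.p6 build. The element was searched as CCNCNCCC on both strands, letters that GC boxes bound by Sp factors also hold. Of all 32851 windows, 49.5% held at least 1 site, and all 7 members' windows did. Klf3 had 10 sites, Klf4 9, Klf7 8, Klf11 5, Klf13 5, Klf2 4 and Klf6 3. The letters searched are mostly C, and the 7 windows held 58.3% to 77.7% G and C, beside a median of 52.7% over all windows. The part of this base composition in the site counts was not tested. The ETS element CCGGAAGT was in 3.89% of all windows and in none of the 7, which says only that these letters are not in these windows. The stretches before the starts of Klf2 (chr8:72318812-72319032, plus strand), Klf6 (chr13:5861239-5861481, plus strand) and Klf13 (chr7:63938916-63939165, minus strand) are shown because these members were lower with ERG. Capitals mark the CCNCNCCC letters on either strand.
Klf2: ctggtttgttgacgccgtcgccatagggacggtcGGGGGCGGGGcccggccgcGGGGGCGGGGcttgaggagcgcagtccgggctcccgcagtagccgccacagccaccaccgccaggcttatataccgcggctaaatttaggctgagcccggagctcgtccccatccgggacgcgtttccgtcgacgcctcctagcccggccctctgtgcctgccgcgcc
Klf6: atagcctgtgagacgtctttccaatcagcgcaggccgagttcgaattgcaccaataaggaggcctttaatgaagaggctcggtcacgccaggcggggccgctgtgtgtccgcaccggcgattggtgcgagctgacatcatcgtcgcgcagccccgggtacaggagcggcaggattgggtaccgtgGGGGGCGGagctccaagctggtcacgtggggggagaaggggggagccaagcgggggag
Klf13: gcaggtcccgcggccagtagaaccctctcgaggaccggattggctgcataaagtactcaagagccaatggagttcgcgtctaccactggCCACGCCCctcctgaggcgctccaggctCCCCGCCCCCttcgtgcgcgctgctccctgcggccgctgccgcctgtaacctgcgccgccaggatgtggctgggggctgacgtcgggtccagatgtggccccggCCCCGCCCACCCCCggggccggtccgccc
The Klf2 and Klf13 stretches hold runs in which sites overlap, while that of Klf6 holds a single site.

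Per kilobase of exon, Klf13 had the highest level of the 9 members and Klf6 the next in all 6 groups. In DMSO-treated BB cells Klf13 was at 25.8 ± 0.458 CPM per kb and Klf6 at 20.4 ± 2.43 CPM per kb. Klf13 made up 36.0% to 39.7% of the members' summed CPM per kb over the groups, and Klf6 made up 23.4% to 30.1%. Klf3, Klf10, Klf16, Klf7 and Klf11 followed at 2.47 to 6.43 CPM per kb, and their order changed between groups. Klf2 was at 1.05 to 2.92 CPM per kb, and Klf4 was lowest everywhere, at 0.0516 to 0.186 CPM per kb. The sum over the members was 70.9 ± 2.35 CPM per kb in BB cells, 59.3 ± 1.74 in WT-ERG cells and 60.2 ± 1.33 in P199L-ERG cells with DMSO. With BRD3308 the sums were 78.5 ± 2.84, 67.9 ± 1.71 and 70.8 ± 2.61 CPM per kb, each above every DMSO library of the same construct.

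**Figure D1:**
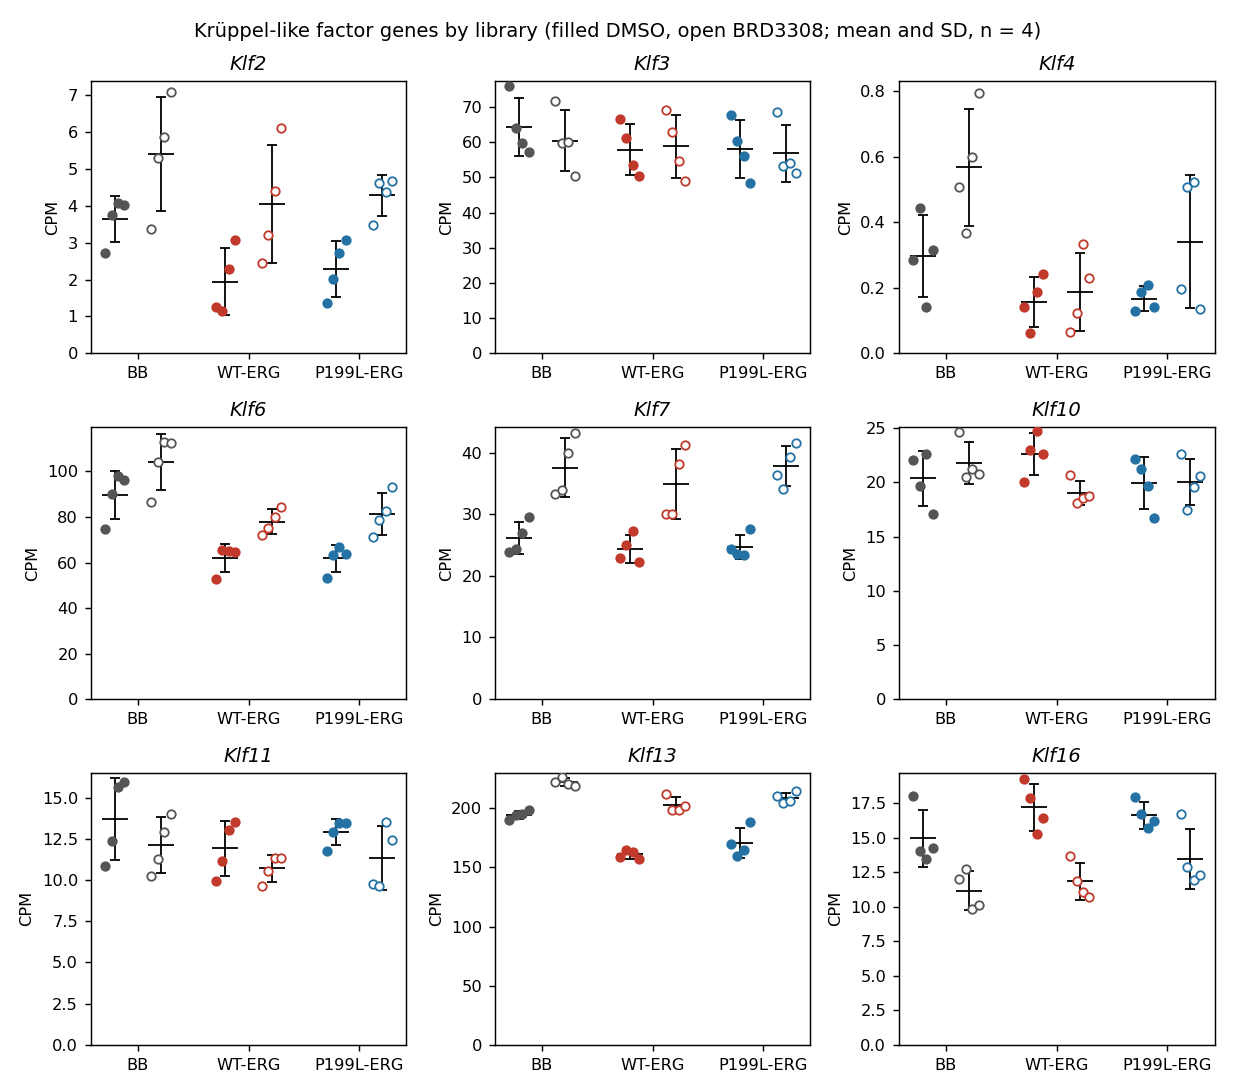
CPM of the 9 members in each library, by construct on the horizontal axis, with filled points for DMSO and open points for BRD3308, and bars for the group mean with its SD over 4 libraries. With DMSO, Klf13 and Klf6 were lower in both ERG constructs than in BB cells, and Klf7 was higher with BRD3308 in every construct, whereas Klf4 stayed under 1 CPM.

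The first question was how the members responded to BRD3308. Klf7 and Klf13 rose and Klf16 fell in all 3 constructs, and Klf2 and Klf6 rose in WT-ERG and P199L-ERG cells. By count, 3 of 8 members were called in BB cells (45.9% of all genes tested), 6 of 8 in WT-ERG cells (48.0% of all genes) and 5 of 8 in P199L-ERG cells (48.5% of all genes). DESeq2 and limma-voom gave the same counts. The median log2 fold change of the members was 0.15, 0.18 and 0.15 in BB, WT-ERG and P199L-ERG cells, beside 0.01, 0.00 and -0.01 over all genes.

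Klf2 (GRCm38 chromosome 8, 72319033 to 72321656) was at 1.26, 1.15, 2.29 and 3.08 CPM in the WT-ERG libraries with DMSO and at 2.45, 3.20, 4.41 and 6.12 CPM with BRD3308. In P199L-ERG cells it was at 1.35, 2.01, 2.71 and 3.07 CPM with DMSO and at 3.47, 4.62, 4.38 and 4.66 CPM with BRD3308. The treatments overlapped in WT-ERG cells and did not in P199L-ERG cells. With WT-ERG, Klf2 rose 2.09-fold (1.06 on the log2 scale, SE 0.30, adjusted p = 0.00402) and with P199L-ERG 1.89-fold (0.92, SE 0.28, adjusted p = 0.00775). In BB cells it was at 2.72, 3.75, 4.08 and 4.02 CPM with DMSO and at 3.36, 5.28, 5.87 and 7.08 CPM with BRD3308, which overlapped. That difference was 0.56 (SE 0.25) and missed the threshold (adjusted p = 0.0693), with a 95% confidence interval of 0.05 to 1.07. Klf2 had 18 to 98 reads per library, the fewest of the members tested, and its difference in BB cells passed when replicate 1 of the BRD3308-treated BB cells was left out (0.73, adjusted p = 0.0154). It passed as well with the replicate number as a block (0.55, SE 0.14, adjusted p = 0.00159) and without the filter on low counts (adjusted p = 0.00172). With only the groups compared the adjusted p was 0.0261, and without replicate 4 of both ERG constructs with DMSO it was 0.043. The Klf2 difference did not pass with RLE factors, library size alone, DESeq2 or limma-voom.

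Klf6 (chromosome 13, 5861482 to 5870394) was at 52.8, 65.3, 65.1 and 64.6 CPM in the WT-ERG libraries with DMSO and at 72.0, 75.3, 79.9 and 84.5 CPM with BRD3308. In P199L-ERG cells it was at 53.4, 63.4, 66.7 and 63.8 CPM with DMSO and at 71.1, 78.9, 82.5 and 93.0 CPM with BRD3308. No treated library of either construct was as low as its highest DMSO library. Klf6 rose by a log2 fold change of 0.33 with WT-ERG (SE 0.09, adjusted p = 0.00509) and of 0.40 with P199L-ERG (SE 0.09, adjusted p = 0.000906). In BB cells, at 74.5 to 98.1 CPM with DMSO and 86.6 to 113 CPM with BRD3308, the difference of 0.21 (SE 0.09) did not pass (adjusted p = 0.0562). It passed without replicate 3 or 4 of BB cells with DMSO, without replicate 1 of BB cells with BRD3308, and without replicate 1 of either ERG construct with DMSO (0.21 to 0.29). With the replicate number as a block it passed as well (0.21, SE 0.04, adjusted p = 5.35e-05).

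Klf7 (chromosome 1, 64029447 to 64122282) was at 22.2 to 29.5 CPM in the 12 DMSO libraries and at 30.1 to 43.1 CPM in the 12 BRD3308 libraries. Every library with BRD3308 was above every library with DMSO, whatever the construct. Its log2 fold change was 0.52 in BB cells (SE 0.10, adjusted p = 0.000108), 0.51 in WT-ERG cells (SE 0.10, adjusted p = 0.000161) and 0.62 in P199L-ERG cells (SE 0.10, adjusted p = 1.16e-05). Klf7 shares 3196 exon bases with a non-coding gene on the other strand, Gm26649, which had 0 reads in all libraries, and the strand setting of the counts is not given in the sources used here.

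Klf4 (chromosome 4, 55527143 to 55532466) had summed reads of 17, 9 and 10 over the 4 DMSO libraries of BB, WT-ERG and P199L-ERG cells and of 33, 11 and 21 over the BRD3308 libraries. The exact 95% Poisson intervals, which cover counting error only, were 9.90 to 27.2 reads for BB cells with DMSO and 22.7 to 46.3 reads with BRD3308. In the planned fit without the filter on low counts, which was read for Klf4 after its low counts had been seen, Klf4 was below BB cells in WT-ERG cells with BRD3308 (-1.58, SE 0.50, adjusted p = 0.0227), and none of the other 11 comparisons passed. At 1 to 11 reads per library Klf4 stays given as not measured. SEs also differed from the filtered fit, at 0.05 against 0.09 for Klf6 with BRD3308 in BB cells. For Klf13 in WT-ERG against BB cells with BRD3308 they were 0.046 against 0.039.

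Among the members that bind Sin3a, Klf13 and Klf16 moved in opposite directions. Klf13 (chromosome 7, 63886351 to 63938915) was at 190, 194, 195 and 198 CPM in BB cells with DMSO and at 222, 227, 221 and 219 CPM with BRD3308. It was at 159, 165, 163 and 157 CPM in WT-ERG cells with DMSO and at 211.9, 198.6, 198.3 and 202.1 CPM with BRD3308. In P199L-ERG cells it was at 170, 160, 165 and 189 CPM with DMSO and at 210, 205, 206 and 215 CPM with BRD3308. The treatments did not overlap in any construct. The log2 fold changes were 0.19 in BB cells (SE 0.04, adjusted p = 0.000191), 0.33 in WT-ERG cells (SE 0.04, adjusted p = 6.41e-08) and 0.29 in P199L-ERG cells (SE 0.04, adjusted p = 5.92e-07). The coefficient of variation of Klf13 within groups was 1.52% to 7.37%, the lowest of the members tested in 5 of 6 groups.

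Klf16 (chromosome 10, 80567124 to 80577321) was at 13.4 to 18.02 CPM in BB, 15.2 to 19.2 CPM in WT-ERG and 15.7 to 17.95 CPM in P199L-ERG cells with DMSO. With BRD3308 it was at 9.81 to 12.7, 10.7 to 13.7 and 11.96 to 16.7 CPM. The groups overlapped in P199L-ERG cells alone. Klf16 fell in BB cells (-0.42, SE 0.11, adjusted p = 0.00337), in WT-ERG cells (-0.53, SE 0.11, adjusted p = 0.000219) and in P199L-ERG cells (-0.31, SE 0.11, adjusted p = 0.0206). The call in P199L-ERG cells was lost without replicate 1 with DMSO or without replicate 2, 3 or 4 with BRD3308 (adjusted p = 0.0517 to 0.0768).

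Klf10 (chromosome 15, 38291463 to 38300706) was at 20.1, 23.0, 24.7 and 22.6 CPM in WT-ERG cells with DMSO and at 20.7, 18.1, 18.6 and 18.7 CPM with BRD3308, which overlapped through replicate 1 of each group. It fell there by 0.25 on the log2 scale (SE 0.09, adjusted p = 0.0287), while the differences were 0.10 in BB cells (SE 0.09, adjusted p = 0.417) and 0.00 in P199L-ERG cells (SE 0.09, adjusted p = 0.974). The call was lost when replicate 2 or 3 of either WT-ERG group was left out (adjusted p = 0.0566 to 0.106) and with more than 30 reads required in every library (adjusted p = 0.0619). Klf3 (chromosome 5, 64803388 to 64832901), at 48.4 to 76.0 CPM, which shares 404 exon bases with Gm20033 (13 to 29 reads), and Klf11 (chromosome 12, 24651274 to 24662789), at 9.62 to 15.9 CPM, passed no comparison in the fit without a replicate block. For Klf3 the log2 fold changes with BRD3308 were -0.09, 0.03 and -0.03 in BB, WT-ERG and P199L-ERG cells, and for Klf11 they were -0.17, -0.15 and -0.19.

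**Figure D2:**
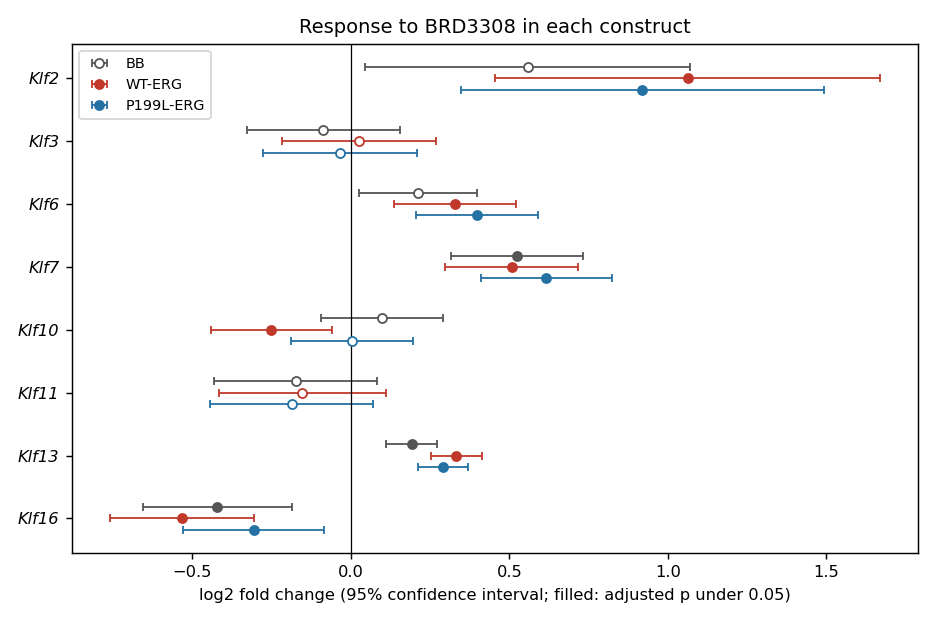
Log2 fold change of BRD3308 against DMSO (horizontal axis) for the 8 members tested, with 95% confidence intervals, in BB (grey), WT-ERG (red) and P199L-ERG cells (blue); filled points passed at an adjusted p under 0.05. Klf7 and Klf13 lie above 0 and Klf16 below 0 in all 3 constructs, and Klf2 has the widest intervals.

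Monocyte and macrophage markers moved with the same treatment. Of 10 listed, 9 were measured and all 9 rose with BRD3308 in each construct. Their summed level was 1807 to 1969 CPM in BB, 835 to 921 CPM in WT-ERG and 1103 to 1196 CPM in P199L-ERG cells with DMSO. With BRD3308 it was 3656 to 3921, 2481 to 2733 and 2874 to 3055 CPM. All 10 neutrophil markers listed were measured, with none at 0, and with BRD3308 6 rose and 1 fell in BB, 7 rose and 1 fell in WT-ERG and 6 rose in P199L-ERG cells. Their summed level was 2679 to 3369 CPM in BB, 2316 to 3306 CPM in WT-ERG and 1922 to 2791 CPM in P199L-ERG cells with DMSO, and 4698 to 6241, 5402 to 6729 and 5003 to 5753 CPM with BRD3308. Beside these marker counts, 45.9%, 48.0% and 48.5% of all genes were called in either direction in BB, WT-ERG and P199L-ERG cells. The part of these marker changes in the members' changes was not tested.

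The second question was how the members differed between constructs. With DMSO, WT-ERG cells held less Klf2, Klf6 and Klf13 than BB cells, 3 of 8 members where 29.7% of all genes were called and 14.1% were called lower. P199L-ERG cells held less Klf6 and Klf13, 2 of 8 members where 28.2% of all genes were called and 12.9% were called lower. No member was called higher with either construct in this fit, which has no replicate block. The median over the members was -0.17 for WT-ERG and -0.11 for P199L-ERG, beside 0.01 and 0.02 over all genes. Both comparisons share the BB libraries.

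Klf6 was at 74.5, 90.1, 98.1 and 96.1 CPM in the BB libraries with DMSO, all above the highest WT-ERG library at 65.3 CPM and the highest P199L-ERG library at 66.7 CPM. Its log2 fold change was -0.53 in WT-ERG cells (SE 0.09, adjusted p = 5.67e-05) and -0.54 in P199L-ERG cells (SE 0.09, adjusted p = 7.06e-05). Klf13 did not overlap either, with values of -0.27 for WT-ERG (SE 0.04, adjusted p = 3.41e-06) and -0.19 for P199L-ERG (SE 0.04, adjusted p = 0.000566). Klf2 was at -0.94 for WT-ERG (SE 0.30, adjusted p = 0.0197), where libraries overlapped, and at -0.68 for P199L-ERG (SE 0.29, adjusted p = 0.0805, not called) with a 95% confidence interval of -1.28 to -0.09. The Klf2 call for WT-ERG was lost without replicate 3 of the BB cells or without replicate 1 or 2 of the WT-ERG cells with DMSO (-0.74 to -0.88, adjusted p = 0.0542 to 0.0887), and the value for P199L-ERG passed without replicate 4 of the P199L-ERG cells with DMSO (-0.86, adjusted p = 0.0458). Klf16 was at 0.20 for WT-ERG (SE 0.11, adjusted p = 0.167) and passed without replicate 1 of the BB cells with DMSO (0.30, adjusted p = 0.0386).

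With BRD3308, WT-ERG cells still held less Klf6 and Klf13 than BB cells, 2 of 8 members where 21.1% of all genes were called and 10.7% were called lower. The values were -0.42 for Klf6 (SE 0.09, adjusted p = 0.00108) and -0.13 for Klf13 (SE 0.04, adjusted p = 0.0143). The Klf13 call was lost without replicate 2 of the WT-ERG cells with BRD3308 (-0.12, adjusted p = 0.05) and without the filter on low counts (-0.13, adjusted p = 0.0578). Klf6 alone was called in P199L-ERG against BB cells (-0.35, SE 0.09, adjusted p = 0.00612), 1 of 8 members where 16.9% of all genes were called and 8.81% were called lower. There the Klf13 value was -0.09 (SE 0.04, adjusted p = 0.123) although the libraries did not overlap, and it passed without replicate 4 of the P199L-ERG cells with DMSO (-0.09, adjusted p = 0.0187). Klf6 libraries of P199L-ERG cells reached 93.0 CPM, above the lowest BB library at 86.6 CPM.

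**Figure D3:**
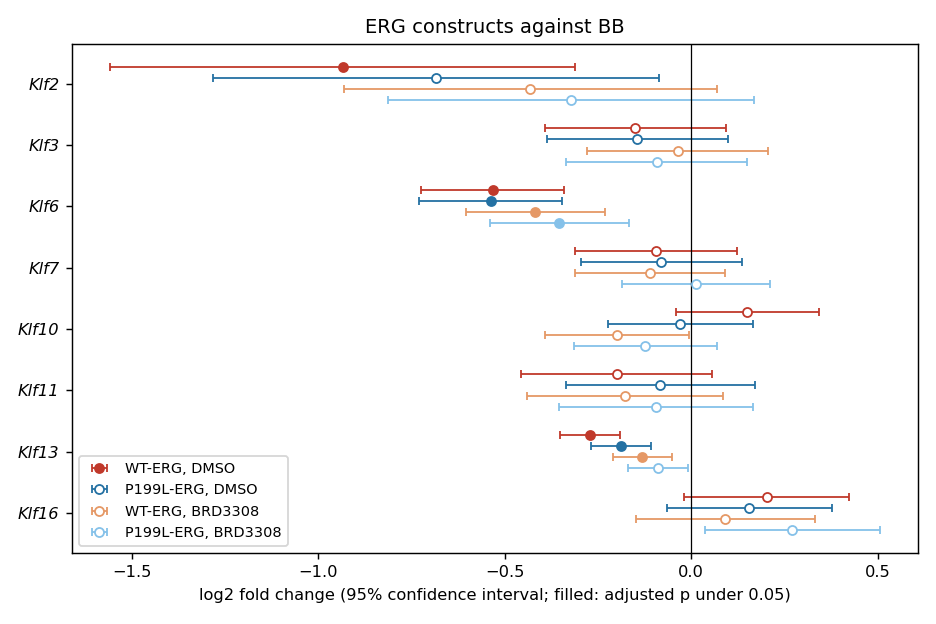
Log2 fold change of WT-ERG and P199L-ERG against BB cells (horizontal axis), with DMSO (dark) and with BRD3308 (light), for the 8 members tested, with 95% confidence intervals; filled points passed at an adjusted p under 0.05. Klf6 lies below 0 and is filled in all 4 comparisons, whereas the intervals of Klf3, Klf7 and Klf11 include 0 in all 4.

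Summed monocyte and macrophage markers were lower with ERG as well, with 5 of 9 measured markers lower and 2 higher in each ERG construct with DMSO. Of the 10 neutrophil markers, 5 were lower and 3 higher with WT-ERG and 6 were lower and 1 higher with P199L-ERG under DMSO. Beside these counts, 29.7% of all genes were called with WT-ERG (14.1% lower) and 28.2% with P199L-ERG (12.9% lower). The marker sums are given above, and those of the neutrophil markers overlapped between BB and each ERG construct. Their part in the lower Klf6 and Klf13 was not tested.

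The third question was whether the ERG variants differed from each other. No member was called between P199L-ERG and WT-ERG cells with DMSO, where 4.67% of all genes were called, or with BRD3308, where 3.40% were called. At an unadjusted p under 0.05 there was 1 member with DMSO and 0 with BRD3308, and DESeq2 and limma-voom called 0 in both. The member with DMSO was Klf13, higher by 0.08 with P199L-ERG (95% confidence interval 0.00 to 0.17, adjusted p = 0.283). For Klf6 the difference with DMSO was 0.00 with an interval of -0.20 to 0.19, whereas the interval of Klf2 ran from -0.43 to 0.93, a range that still includes large differences.

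The response to BRD3308 itself was compared between constructs by an interaction term. No member was called for WT-ERG minus BB (1.73% of all genes called), for P199L-ERG minus BB (1.05%) or for P199L-ERG minus WT-ERG (0.0463%), and DESeq2 and limma-voom called 0 in all 3. At an unadjusted p under 0.05 there were 2, 0 and 0 members. They were Klf10, whose response differed by -0.35 (SE 0.13, adjusted p = 0.271), and Klf13, whose response differed by 0.14 (SE 0.06, adjusted p = 0.302), in WT-ERG against BB cells. The fall of Klf10 in WT-ERG cells is thus not shown to differ from its response in BB cells.

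The other genes of the network were taken from lists. Of 8 further Krüppel-like factors, Klf8 and Klf9 were measured. Klf8 was at 4.38 ± 0.274 CPM in BB, 5.48 ± 0.443 CPM in WT-ERG and 5.41 ± 0.181 CPM in P199L-ERG cells with DMSO. It was higher than in BB cells with WT-ERG (0.32, SE 0.10, adjusted p = 0.028) and P199L-ERG (0.30, SE 0.10, adjusted p = 0.0436), opposite to Klf6 and Klf13. Klf8 fell with BRD3308 in BB cells (-0.35, SE 0.11, adjusted p = 0.0225), and Klf9 passed no comparison. Of 9 Sp factors, which bind the same GC-rich elements, 5 were measured. With BRD3308, 2 rose and 3 fell in BB cells, and 2 rose and 1 fell in each ERG construct. Of all genes, 45.9%, 48.0% and 48.5% were called there in BB, WT-ERG and P199L-ERG cells. With BRD3308 Sp3 rose and Sp2 fell in every construct, with log2 fold changes of 0.13, 0.22 and 0.24 for Sp3 and -0.38, -0.35 and -0.21 for Sp2 in BB, WT-ERG and P199L-ERG cells. Sp2, Sp3, Sp4 and Sp9 were lower with each ERG construct under DMSO, with log2 fold changes of -0.12 for Sp3 and -0.17 to -0.34 for Sp2 and Sp4. That is 4 of 5 measured, where 14.1% (WT-ERG) and 12.9% (P199L-ERG) of all genes were called lower, and Sp1 was not called. Sp9, at 1 to 26 reads per library, had values of -1.82 and -1.38.

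All 11 co-regulators listed were measured. With BRD3308, 5 fell and 1 rose in BB cells, 7 fell and 1 rose in WT-ERG cells, and 6 fell and 1 rose in P199L-ERG cells, where 45.9%, 48.0% and 48.5% of all genes were called in either direction. Ctbp1, the partner of Klf3, fell by 0.22 in each construct (SE 0.03, adjusted p = 3e-06, 5.09e-06 and 2.79e-06). Sin3a, the partner of Klf10, Klf11, Klf13 and Klf16, went from 142 ± 7.56 to 114 ± 11.9 CPM in BB cells (-0.32, SE 0.06, adjusted p = 0.000126) and fell by 0.37 and 0.31 in WT-ERG and P199L-ERG cells. Hdac1 was the riser, by 0.19, 0.15 and 0.13. Of 13 genes that act upstream, 12 were measured, and with BRD3308 Srf fell in each construct (-0.37, -0.43 and -0.40) while Tgfbr2 rose (0.34, 0.39 and 0.42). Mef2c, which activates Klf2 downstream of the kinase Erk5, was higher with WT-ERG (0.52, SE 0.06, adjusted p = 1.88e-08) and P199L-ERG (0.58, SE 0.06, adjusted p = 4.4e-09) under DMSO, where Klf2 was lower or did not pass. Wwp1, a ubiquitin ligase of Klf2, was higher as well (0.30 and 0.21, SE 0.05 each). Of the 12 upstream genes, 4 were called higher and 1 lower with WT-ERG under DMSO, and 2 higher and 1 lower with P199L-ERG. Beside these counts, 29.7% and 28.2% of all genes were called. The part of Mef2c and Wwp1 in the Klf2 level was not tested.

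Of 12 genes known as targets of the family, 8 were measured, and with BRD3308 5 rose in BB cells, 4 rose and 1 fell in WT-ERG cells, and 5 rose in P199L-ERG cells, beside 45.9%, 48.0% and 48.5% of all genes called. The integrin gene Itgb7 went from 1.78 ± 0.376 to 39.7 ± 2.77 CPM in BB cells (4.47, SE 0.11), from 4.65 ± 0.339 to 51.5 ± 3.90 CPM in WT-ERG cells (3.47, SE 0.09) and from 3.52 ± 0.629 to 44.4 ± 2.64 CPM in P199L-ERG cells (3.65, SE 0.10). On the log2 scale its response was smaller than in BB cells with WT-ERG (SE 0.18, adjusted p = 0.00101) and with P199L-ERG (-0.82, SE 0.18, adjusted p = 0.0187). BB cells started from the lowest level, 1.78 CPM, and their level with BRD3308, 39.7 CPM, was also below that of either ERG construct. The cell cycle inhibitor Cdkn1a rose by 1.27, 0.85 and 0.76. Its log2 response was smaller than in BB cells as well, by -0.42 with WT-ERG (SE 0.08, adjusted p = 0.00363) and -0.51 with P199L-ERG (SE 0.08, adjusted p = 0.000572). Thbd rose by 0.50, 0.51 and 0.47.

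The genes most like each member over the 24 libraries, by Pearson r of log2 CPM (genes averaging 2 or more on that scale), were Ccl3 (0.94), Tnf and Znrf1 for Klf2, and Fnip1 (0.97), Degs1 and I830077J02Rik for Klf6. They were Apobec1 (0.93), Gda and Cd274 for Klf7, I830127L07Rik (0.96), St14 and Siglece for Klf13, and Cdv3 (0.93), Ubqln4 and Tcof1 for Klf16. For Klf3 they were C2cd2l (0.95), Neurl4 and Slx4, for Klf11 Tmub2 (0.86) and Dtl, and for Klf10 Proser3 (0.67), Cpt2 and Zfp953. The libraries share constructs, treatments and replicate numbers, which all of these values contain.

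Members also differed by replicate number. Klf3 was highest in replicate 1 and lowest in replicate 4 in 6 of 6 groups, and Klf6 was lowest in replicate 1 in 6 of 6 groups. Klf2 was lowest in replicate 1 in 5 groups and highest in replicate 4 in 5 groups. The deviation of genes from their group mean was correlated with exon length, positively in replicate 1 of all 6 groups (0.13 to 0.42) and negatively in replicate 4 of both ERG constructs with DMSO (-0.47 and -0.44), a description over 9759 genes. Klf3, with 11243 exon bases, is the longest of the members and Klf2, with 1847, the shortest. Other members did not follow that order. Klf7, with 8131 exon bases, was highest in replicate 4 in 5 groups, and Klf16, with 2674, was highest in replicate 1 in 5 groups. The part of length in the members' values was not tested. With replicate 1 left out of all groups, an alternative chosen after seeing the data, 5 of 8 members were called for BRD3308 in BB cells instead of 3.

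**Figure D4:**
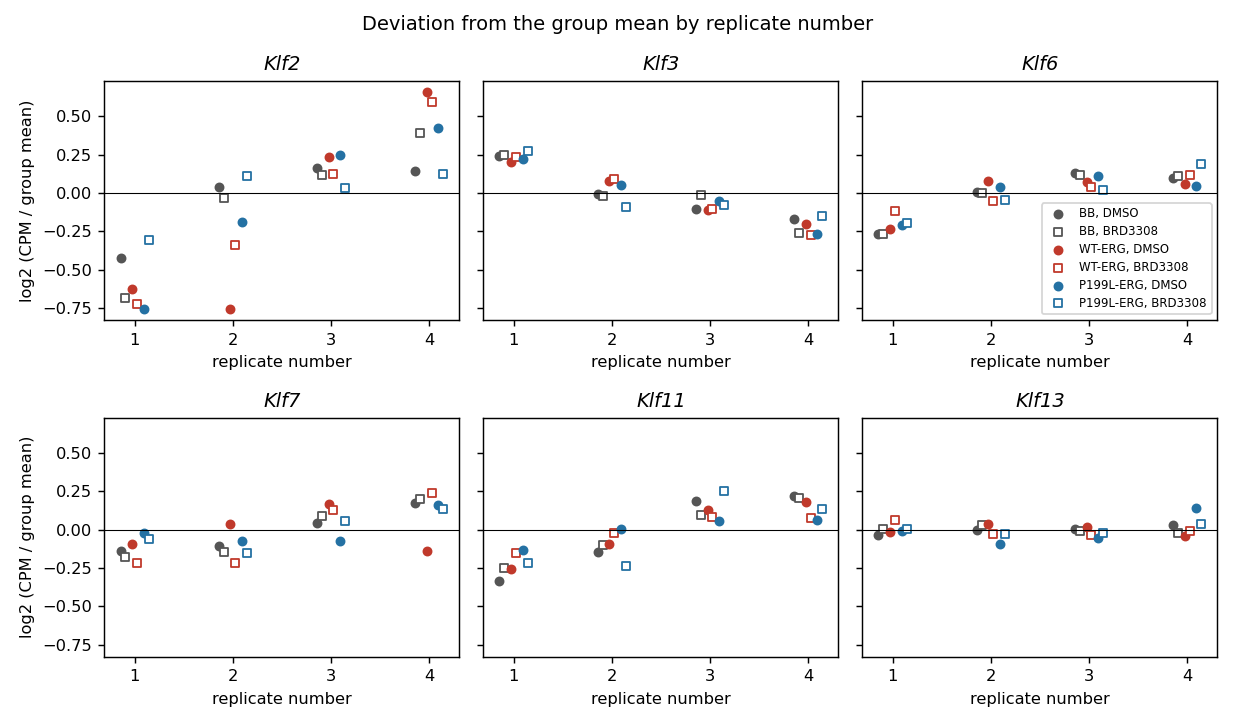
Log2 ratio of each library's CPM to its group mean (vertical axis) by replicate number for 6 members, with colours for constructs, filled circles for DMSO and open squares for BRD3308. Klf3 lies above 0 in replicate 1 and below 0 in replicate 4 of all 6 groups, Klf6 lies below 0 in replicate 1 of all 6, and Klf13 stays close to 0.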

How the data were processed

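Per the methods and the submitters' processing notes, the authors used STAR to map reads of at least 30 bp to GRCm38 and deposited raw read counts per gene. Cutadapt, HTSeq and DESeq2 are named there too, with no version. The counting annotation and strand setting were not given in the sources used here. Symbols and exon lengths came from GENCODE M21, which matched 53620 of 53801 genes. Groups were taken from the labels.

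Genes were kept by edgeR's filterByExpr and scaled by TMM. Contrasts came from a single quasi-likelihood fit with a coefficient per group (edgeR 4.0.16, R 4.3.3), with two-sided p values adjusted by Benjamini-Hochberg over all genes tested. SE was taken as the size of the log2 fold change over the root of its F statistic. Named genes were all members, measured Klf and Sp genes, up to 4 genes with the smallest p per other list, and the 3 genes most like each member. Some genes that meet this rule are left out of the text. Alternatives were RLE factors, library size alone, other count filters, DESeq2 1.42.0, limma-voom (limma 3.58.1), only the groups compared, the replicate number as a block, and libraries left out. The members and lists were chosen with earlier results of these data known. In simulated data for BRD3308 in WT-ERG cells (12748 genes), 21 of 50 genes changed 1.2 times and 43 of 50 changed 1.5 times were found. For the response difference WT-ERG minus BB (12753 genes), 4 and 36 of 50 were found. For BRD3308 in WT-ERG cells the simulation called 161 genes, whereas 48.0% of all genes were called in the data. The adjusted p is stricter where fewer genes change, so the shares found for that comparison do not describe the real data.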

Additional observations from a re-analysis of the deposited data

Results flagged for a closer look

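In 2 of the 48 combinations of a measured member and a group, a library stood apart from the other 3, with a gap to its nearest neighbour above Dixon's 95% critical value as a share of the group's range. Chance gives about 1 in 20 such groups. Klf6 in replicate 1 of WT-ERG cells with DMSO was at 52.8 CPM, below the others at 64.6 to 65.3 CPM (ratio 0.942). Klf3 in replicate 1 of P199L-ERG cells with BRD3308 was at 68.7 CPM, above the others at 51.3 to 54.0 CPM (ratio 0.847).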

How the results depend on the processing

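No call of a member changed direction under any alternative. RLE factors, library size alone, DESeq2 and limma-voom left all 96 member values on their side of the threshold. Members called for BRD3308 in BB cells went from 3 to 5 without the filter on low counts, with only the groups compared, with replicate 4 of both ERG constructs with DMSO left out together and with replicate 1 of all groups left out together (chosen after seeing the data), and P199L-ERG against BB with BRD3308 went from 1 to 2 members with only the groups compared and without those replicates 4. The cause was not tested.

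Same-numbered libraries did not pair by the criterion set, a correlation of deviations over 0.1 in every pair, in any of the 9 comparisons between groups. The mean correlation was 0.111 between libraries of the same number and -0.0369 between others, and 17 of 24 libraries correlated best with their own number. With the replicate block, 6 members were called for BRD3308 in BB cells, 6 for WT-ERG against BB with DMSO, 4 for P199L-ERG against BB with DMSO and 2 with BRD3308, while the genes called in these comparisons went to 6814 (from 5954), 4763 (from 3852), 4698 (from 3652) and 3023 (from 2194). Klf3 passed against BB with DMSO for both ERG constructs (-0.15 each, adjusted p = 0.00648 and 0.00844), and Klf11 passed there for WT-ERG (-0.20, adjusted p = 0.0317) and for BRD3308 in BB (-0.17, adjusted p = 0.0448) and P199L-ERG cells (-0.19, adjusted p = 0.025). Klf16 passed as higher than in BB cells for WT-ERG with DMSO (0.21, adjusted p = 0.0153) and for P199L-ERG with BRD3308 (0.27, adjusted p = 0.00582). Klf2 passed as lower for P199L-ERG with DMSO (-0.69, adjusted p = 0.0019) and for WT-ERG with BRD3308 (-0.43, adjusted p = 0.0185). Klf2 (0.55, adjusted p = 0.00159) and Klf6 (0.21, adjusted p = 5.35e-05) passed as higher for BRD3308 in BB cells. Genes called went to 467 (from 136), 28 (from 6) and 421 (from 224) for the response differences P199L-ERG minus BB, P199L-ERG minus WT-ERG and WT-ERG minus BB, and to 1026 (from 606) and 732 (from 441) for P199L-ERG against WT-ERG with DMSO and BRD3308.

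Over all genes, the response difference P199L-ERG minus BB gave 300 calls without the filter. P199L-ERG minus WT-ERG gave 21 without the filter, 21 with DESeq2, 1 with only the groups compared, 13 without the replicates 4 and 1 without replicate 1. WT-ERG minus BB gave 350 without the replicates 4 and 135 without replicate 1. Genes called for P199L-ERG against WT-ERG went to 229 with DMSO and only those groups, and to 702 with BRD3308 without the replicates 4, and P199L-ERG against BB with DMSO gave 2237 with only those groups.

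With each library left out in turn, members called ranged from 3 to 5 for BRD3308 in BB cells, from 1 to 2 for each ERG construct against BB with BRD3308, from 2 to 3 for P199L-ERG and from 2 to 4 for WT-ERG against BB with DMSO. The response differences gave 79 to 176, 0 to 8 and 164 to 371 calls in the order above.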

Other observations

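Over the 24 libraries, Klf2 and Klf6 had a Pearson r of log2 CPM of 0.86, Klf7 and Klf13 of 0.81, and Klf2 and Klf16 of -0.84. Klf10 and Klf11 had values of at most 0.31 in size with Klf2, Klf6, Klf7, Klf13 and Klf16, except Klf2 and Klf10 at -0.32. These are descriptions over libraries that share constructs, treatments and replicate numbers.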
